A study of Homo sapiens with 4 samples.

Results

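The window around the ESR2 gene on chromosome 14 held a row of DDX5 ChIP-seq peaks, most of them strong, with no Fra-1 peak at any of them. Whether these peaks reflect DDX5 bound at the gene was not tested. The members are the peaks of the 4 deposited lists that overlap the 120 kb window from 64690000 to 64810000 on chromosome 14 (hg19). There are 16 of them among the 57601 peaks of all lists. The DDX5 list called over input gave 8 of 10836, the DDX5 list over IgG 7 of 61, the Fra-1 list over input 1 of 30571 and the Fra-1 list over IgG 0 of 16133. The window was chosen by the fold, the −log10 q and the number of its DDX5 peaks and by their lack of Fra-1, so these values are descriptions and not tests.

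ESR2 encodes oestrogen receptor beta, a nuclear hormone receptor that binds DNA through zinc fingers and is activated by oestrogen. The gene is transcribed from the minus strand, so its 5′ end lies at the higher coordinates. In the RefSeq table for GRCh38.p14, used here only for names and order, its protein-coding neighbours are SYNE2, a nuclear envelope protein gene at lower coordinates, and MTHFD1, a folate enzyme gene at higher coordinates. The pseudogene TEX21P comes directly after ESR2 on the MTHFD1 side, and the non-coding RNA gene LOC124903328 overlaps ESR2. DDX5, an RNA helicase of the DEAD-box family, also acts in transcription as a coactivator and is known to bind oestrogen receptor alpha. Fra-1, the product of FOSL1, belongs to the Fos family and pairs with Jun proteins to form AP-1, which recognises short palindromic DNA sites.

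All 4 libraries came from untreated BT549 cells, an ERalpha-negative human breast cancer line grown in medium with serum. They were 1 ChIP with a DDX5 antibody, 1 with a Fra-1 antibody, 1 using normal rabbit IgG, and 1 library of input DNA, which is sonicated chromatin without immunoprecipitation. No library was replicated, so no p-value is given, and the intervals below cover counting error only. Absolute read depths are unknown, and from the scaling of the pileups the Fra-1 library was 1.13 times as deep as the DDX5 library.

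Along the chromosome, the 8 DDX5 peaks over input are numbered 1 to 8. Their height is given as the pileup, the number of ChIP fragments stacked at the summit, and as the fold, which divides the pileup by the level of the control at the site after adding 1 to each. Both are the authors' values. Peak 1 lay at 64701577 to 64702007, where the pileup was 47 and the fold over input 13.0. Peak 2 lay at 64716177 to 64716515, where the pileup was 24 and the fold 6.11. Peak 3 lay at 64723817 to 64724220, where the pileup was 40 and the fold 11.1. Of these first 3 peaks, peak 2 was the lowest. Peak 4, at 64727021 to 64727606, was the highest of the locus: its pileup was 94 and its fold 25.8. Peak 5 lay at 64735385 to 64735721, where the pileup was 27 and the fold 6.32. Peak 6 lay at 64746618 to 64747017, where the pileup was 38 and the fold 7.37. The heights thus did not run in one direction along the window. Peak 7, at 64749226 to 64749783, was the second highest: its pileup was 77 and its fold 21.2. Peak 8 stood alone at 64805612 to 64805987, near the upper edge of the window, where the pileup was 15 and the fold 3.95.

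Counting error left part of this order undecided. The exact 95% Poisson interval of the pileup was 76.0 to 115 for peak 4 and 60.8 to 96.2 for peak 7, so these neighbours in the order were not separated. Peaks 1, 3 and 6, with intervals of 34.5 to 62.5, 28.6 to 54.5 and 26.9 to 52.2, formed a middle group whose intervals overlapped each other. The interval of peak 1 also reached that of peak 7. Peaks 5 and 2 had 17.8 to 39.3 and 15.4 to 35.7, which reached the middle group. Peak 8, at 8.40 to 24.7, overlapped peaks 2 and 5 and lay below all others. Peaks 4 and 7 together held 47.2% of the sum of the 8 pileups, 362 fragments. These intervals treat fragments as independent, which PCR copies are not. Overlap of intervals does not by itself show that heights are alike, and the differences between peaks were not tested.

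**Figure D1:**
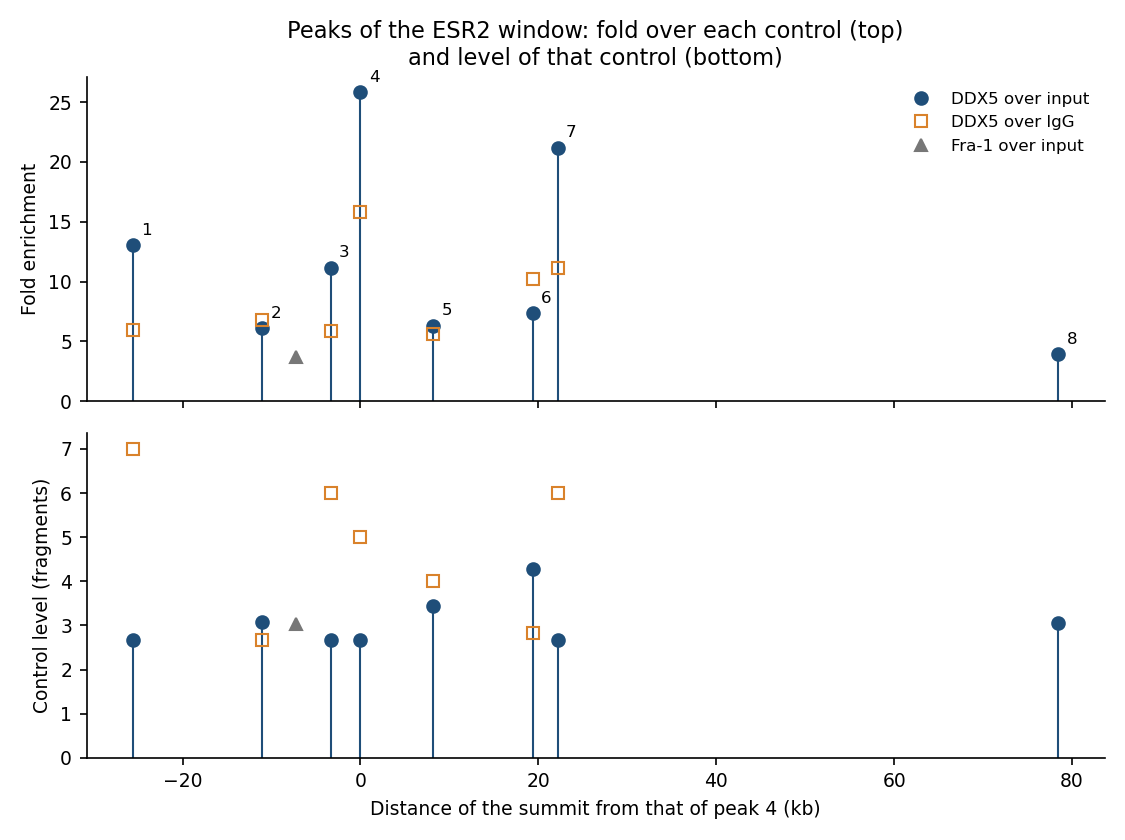
Each symbol is 1 peak of the ESR2 window, placed by the distance of its summit from that of peak 4 (kb), with the fold over its control on the upper axis and the level of that control, in fragments, on the lower axis. Peaks 1 to 7 of DDX5 lie within 47.7 kb, peak 8 lies far to the right, and the single Fra-1 peak sits low between peaks 2 and 3.

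Peaks 1 to 7 formed a cluster of separate peaks, with no broad domain listed. Their summits spanned 47.7 kb. Neighbouring summits were 14.5, 7.70, 3.33, 8.19, 11.2 and 2.77 kb apart from peak 1 to peak 7, so the spacing was irregular. The distance from peak 7 to peak 8 was 56.3 kb. No DDX5 peak was listed between any of these. The 8 peaks over input covered 3431 bp in all, 2.86% of the window. Whether each peak lies in an exon, in an intron or upstream of ESR2 was not analysed here, because no gene model in hg19 was used. Peak 8 is the one nearest to the 5′ end of the window on the gene's strand, and its place relative to the ESR2 start was likewise not analysed here.

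The widths followed the heights. Over input they ran from 337 bp (peak 5) to 586 bp (peak 4), with a median of 402 bp, against 285 bp in the whole DDX5 list over input. Every one of the 8 was 300 bp or wider, as were 4909 of the 10836 peaks of the list. Across all 8 peaks the Spearman correlation of pileup and width was 0.905. Across peaks 1 to 7 it was 0.96, a description over 7 sites of 1 library. In the whole list it was 0.47. Peak 8 had the lowest pileup but was wider (376 bp) than peaks 2 and 5. Summits lay close to the middle of the peaks: over input the offset from the centre was 3 to 5 bp in peaks 1, 2 and 5 and 51.5 bp in peak 4. Peak 6 was the most lopsided, with 146 bp on the lower side of the summit and 253 bp on the upper side.

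Among the strongest DDX5 peaks these sites were rather narrow. Of the 8, 4 (peaks 1, 3, 4 and 7) reached 8-fold over input, as did 2.28% of the whole list. They were 431, 404, 586 and 558 bp wide. The 243 DDX5 peaks of at least 8-fold elsewhere had a median width of 747 bp. Of these, 33 were as narrow as peak 3 or narrower, and 83 as narrow as peak 4 or narrower. In pileup, 26 of the 243 were as high as peak 4, and 3 of these were also as narrow. For peak 7, 45 were as high and 5 of these as narrow. For peak 1 it was 5 of 109, and for peak 3 it was 7 of 144. Narrow, high DDX5 peaks were therefore present elsewhere, but they were few. Peaks as high as peak 4 were themselves few at any width.

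**Figure D2:**
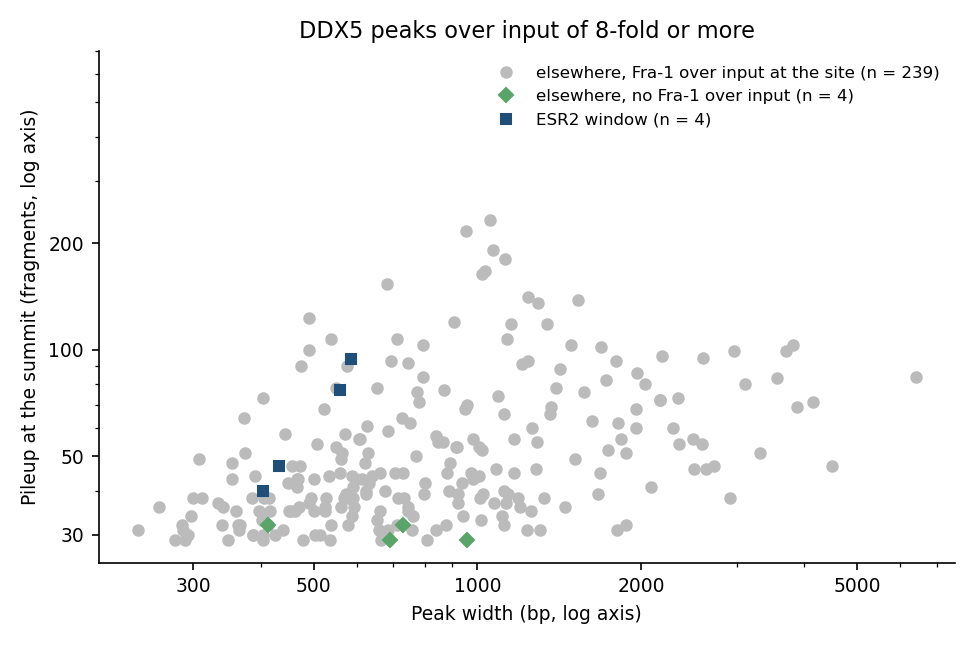
DDX5 peaks over input of at least 8-fold, with width (bp) on the horizontal and pileup at the summit (fragments) on the vertical axis, both logarithmic. Squares are the 4 peaks of the ESR2 window, at 404 to 586 bp, diamonds the 4 peaks elsewhere without Fra-1, and circles the 239 with a Fra-1 peak over input at the site.

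The call over IgG kept 7 of the 8 DDX5 peaks over input (87.5%), all but peak 8. In the whole list 0.508% of peaks over input were called again over IgG, and outside the window 48 of 10828 were. The IgG library records what an unspecific antibody pulls down. Over IgG, peak 1 had a fold of 5.99, peak 2 one of 6.79 and peak 3 one of 5.84. Peak 4 had the highest fold of the list, 15.8. Peak 5 had a fold of 5.59, peak 6 one of 10.2 and peak 7 one of 11.1. These were the highest 7 of the list, and 3 of them made up all 3 peaks of the list at 8-fold or more (4.92% of the list). The highest fold elsewhere, 5.43, was close below that of peak 5. It belonged to a peak on chromosome 7, 126987765 to 126987964, with a pileup of 18.95.

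The order of the peaks changed with the control, since the input and IgG levels did not run in parallel. At peaks 1, 3, 4 and 7 the input level was 2.68, the lowest that the list allows, so the true input level there may be lower. In the DDX5 list over input 18.1% of peaks sat at this lowest level. The IgG levels at the same 4 peaks were 7.0, 6.0, 5.0 and 6.0 fragments, against a lowest possible 2.67. At peak 5 input was 3.43 and IgG 4.0. At these 5 peaks the fold over IgG was thus lower than that over input, by 1.13 times at peak 5 to 2.18 times at peak 1. Peaks 2 and 6 went the other way. Peak 2 had an input level of 3.09 and an IgG level of 2.67, and peak 6 an input level of 4.29 and an IgG level of 2.82, so both had a higher fold over IgG. Counts of 4 to 7 fragments are small: the exact Poisson interval was 2.81 to 14.4 at peak 1 and 1.09 to 10.2 at peak 5, and only that of peak 1 stayed above 2.67. The IgG differences between these peaks were not distinguishable at this depth.

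Elsewhere, DDX5 peaks over IgG had a higher median IgG level with Fra-1 than without it. Overlap with Fra-1 is judged here on the extent of the peak over IgG. Of the 7 peaks elsewhere without Fra-1 by this rule, 5 also lacked it over the wider extent called over input. The rest, on chromosomes 8 and 9, had IgG levels of 13.0 and 12.0. At the 47 peaks with a Fra-1 peak over input the median IgG level was 23.0 fragments (2.90 to 133), and the median fold was 2.76. Their median pileup was 62.85, and whether peak height accounts for the higher IgG level was not tested. At the 7 peaks elsewhere without Fra-1 the median IgG level was 4.60 (2.67 to 13.0), close to the 5.0 of the window, so a low IgG level was shared with these sites. They were lower and narrower than the window peaks over IgG: their median pileup was 24.9 against 39.9, their median fold 4.45 against 6.79, and their median width 215 bp against 324 bp. The ratio of the fold over input to that over IgG had a median of 1.63 in the window (0.724 to 2.18). At the 7 sites elsewhere its median was 1.09 (0.815 to 2.12), and 3 of 7 had the higher fold over IgG. The 2.12 was at the chromosome 9 site that met Fra-1 over input. At the 5 sites that lacked Fra-1 by both extents the ratio reached only 1.36. In the 46 pairs of calls at Fra-1 sites the median ratio was 3.79, and all 46 had the lower fold over IgG. Some of these pairs share 1 broad peak over input, with summits up to 2521 bp apart. In such pairs the ratio sets folds of different positions against each other.

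**Figure D3:**
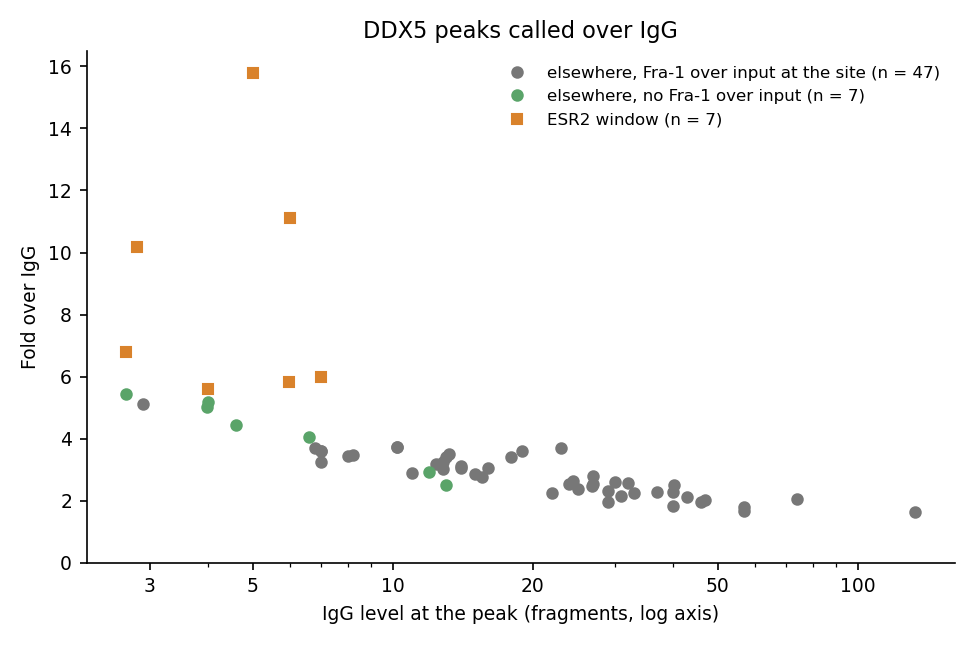
The 61 DDX5 peaks called over IgG, with the IgG level at the peak (fragments, logarithmic axis) on the horizontal and the fold over IgG on the vertical axis. The 7 peaks of the ESR2 window (squares) lie at IgG levels of 2.67 to 7.0 with folds of 5.59 to 15.8. The 7 other peaks without Fra-1, judged on the extent over IgG, lie at 2.49-fold to 5.43-fold.

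The same summits were found with both controls. The summits of peaks 2, 3, 4 and 7 were at the same base in both lists, those of peaks 1 and 5 were 2 and 1 bp apart, and that of peak 6 was 8 bp apart. Both lists use the same DDX5 library, so this shows that the control did not move the peaks and is no repeat of the ChIP. Each peak was narrower over IgG, by 32 bp (peak 5) to 115 bp (peak 3), with a median width of 324 bp. The trimming was uneven: the upper end of peak 5 and the lower end of peak 6 were at the same base in both lists. None of the 53 pairs elsewhere shared an end. The 48 peaks over input in those pairs were wider, with a median of 1036.5 bp against 404 bp for peaks 1 to 7. Whether the difference in width accounts for this was not tested.

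**Figure D4:**
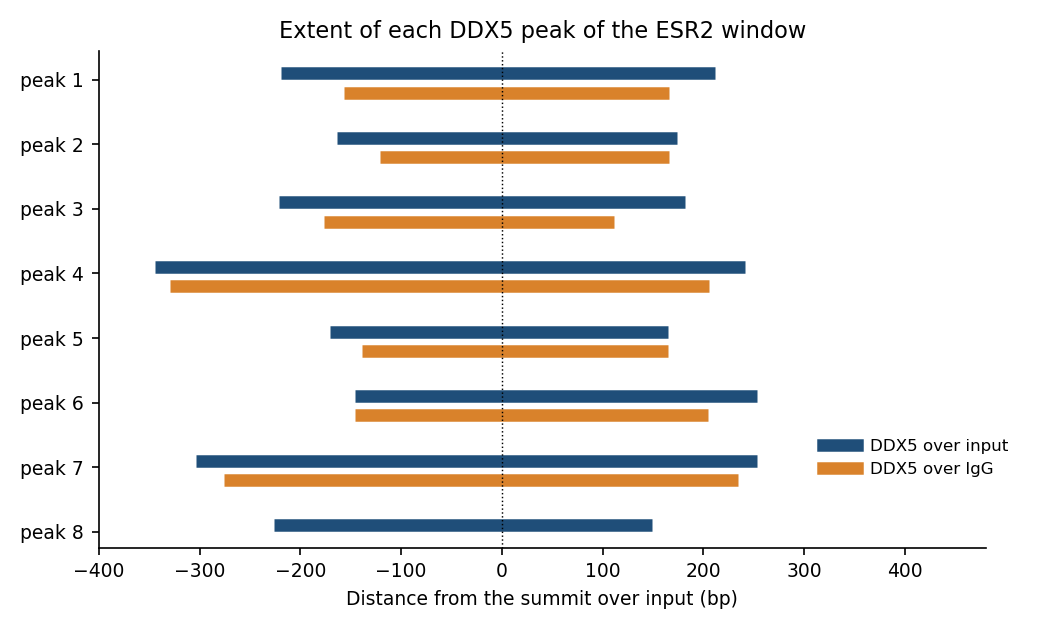
Extent of each DDX5 peak of the window relative to its summit over input (bp, higher coordinates to the right), as called over input (dark) and over IgG (orange). Peak 8 has no call over IgG, and peaks 5 and 6 each share 1 end between the lists.

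The window held 1 Fra-1 peak over input and 0 over IgG. How many Fra-1 peaks a window of this length holds on average was not analysed here. None of the 8 DDX5 peaks overlapped a Fra-1 peak over input, which is part of how the window was chosen. In the whole DDX5 list 61.8% did. Over IgG, no Fra-1 peak met any of the 8 either, while 1425 of the 10836 DDX5 peaks of the list had one. The single Fra-1 peak of the window lay at 64719931 to 64720130, between DDX5 peaks 2 and 3. A gap of 3.42 kb separated it from its nearest DDX5 peak, peak 2. The Fra-1 peak was 200 bp wide, the minimum of the list, and its pileup was 14 and its fold 3.73. Only 741 of 30571 Fra-1 peaks over input had a pileup that low or lower, while 5748 (18.8%) had a fold that low or lower. The window peak was not called over IgG, while 50.5% of Fra-1 peaks over input were. The Fra-1 list held peaks with pileups down to 11 at its lowest input level of 3.02, so it reached far below the 94 DDX5 fragments of peak 4. How much Fra-1 signal lay below the calling threshold at the DDX5 peaks was not analysed here.

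In the lists over input, the nearest peaks outside the window lay 66.9 to 329 kb from its edges. How this compares with the usual spacing of peaks was not analysed here. Below it, the nearest DDX5 peak over input was 329 kb from the edge (4.996-fold) and the nearest Fra-1 peak over input 327 kb away (7.05-fold). Above it, the nearest DDX5 peak over input was 161 kb from the edge (4.05-fold) and the nearest Fra-1 peak 66.9 kb away (5.13-fold). No other DDX5 peak over IgG was listed on chromosome 14. The first member inside the lower edge was peak 1, 11.6 kb from it, and the last inside the upper edge was peak 8, 4.01 kb from it.

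Among DDX5 peaks without Fra-1 the locus held the highest folds. There were 4136 such peaks over input (38.2% of the list), with a median fold of 3.97. Peaks 4, 7, 1 and 3 ranked 1, 2, 3 and 4 among them by fold, peak 6 ranked 9, peak 5 ranked 44 and peak 2 ranked 69. Peak 8 ranked 2100, near the middle. Only 8 of the 4136 reached 8-fold, 4 in the window (11.1 to 25.8) and 4 elsewhere (8.15 to 8.97). The 4 elsewhere had pileups of 29 to 32, none was called over IgG, and the highest was on the X chromosome at 3733555 to 3733966. Of the 14 DDX5 peaks over IgG without Fra-1 (23% of that list), 7 were in the window. In the whole DDX5 list over input, Fra-1 sites included, peak 4 ranked 6 and peak 7 ranked 11 by fold.

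Runs of DDX5 peaks without Fra-1 were found elsewhere, but their peaks without Fra-1 were weaker. In stretches of at most 120 kb that do not overlap each other, 45 others held 8 or more such peaks. Over the peaks without Fra-1, their median folds ran from 1.37 to 4.89 and the highest single fold was 7.15, against a median of 9.26 and a highest fold of 25.8 in the ESR2 window. None held a peak of 8-fold or more without Fra-1, but 12 held DDX5 peaks of 8-fold or more at Fra-1 sites, up to 17.9-fold. A DDX5 peak without Fra-1 that was called again over IgG was found in 1 of the 45, a single peak, against 7 in the window. Another 4 held 1 DDX5 peak each that was called again over IgG at a Fra-1 site. The fullest was on chromosome 22, 46432036 to 46512669, with 24 DDX5 peaks without Fra-1 and 15 with Fra-1, at a median fold of 4.08 for those without. Next came chromosome 19, 1109096 to 1228416, with 23 without and 11 with, and the X chromosome, 153569665 to 153679800, with 20 without and 21 with. None of these 3 stretches held a DDX5 peak over IgG. In 1 other stretch, on chromosome 17 from 42249486 to 42298201, all 9 DDX5 peaks lacked Fra-1, and their median fold was 4.08. In the list over IgG, the most peaks in another stretch of this length was 2.

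**Figure D5:**
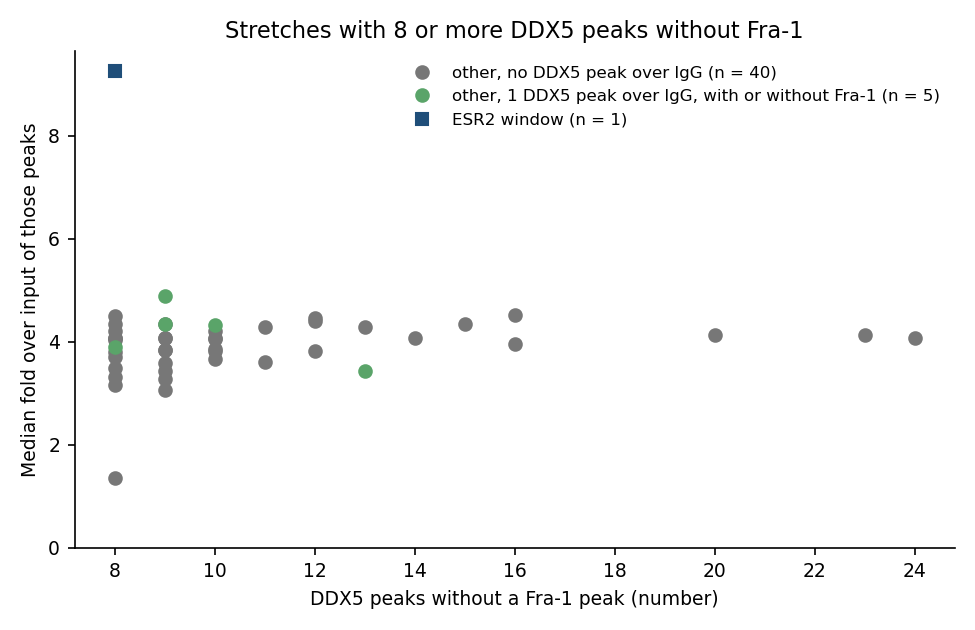
The 46 stretches of at most 120 kb with 8 or more DDX5 peaks over input that lack a Fra-1 peak, with the number of those peaks on the horizontal and their median fold over input on the vertical axis. Green marks stretches with 1 DDX5 peak over input that was called again over IgG, which is at a Fra-1 site in 4 of the 5. Some of these hold more than 1 peak in the list over IgG. The ESR2 window (square) has a median of 9.26, and the others lie between 1.37 and 4.89.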

How the data were processed

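Per the submitters' processing notes, CASAVA 1.8, Bowtie 0.12.9, HOMER and hg19 were used, with no role given. Neither the program that called peaks nor its parameters were given in the sources used here. Each of the 4 deposited lists compares 1 ChIP library with 1 control. Per the file headers, the deposited signal is the pileup at the summit and the deposited fold enrichment is a ratio. In lists over IgG the authors' pileups are scaled to the IgG library (by 0.884 for Fra-1 and 0.998 for DDX5, at summits shared by both lists). The deposited −log10 columns have unreadable headers. The first equals the Poisson upper tail of the pileup given the control level (median difference 5.20e-06 in the DDX5 list over input), and the second was read as −log10 q (largest q 0.0495).

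To obtain the control level, 1 was added to the pileup, the sum was divided by the fold, and 1 was subtracted. This level has a lower limit, the background assumed by the caller. A level within 0.02 of the list's lowest counts as lowest. Peaks overlap when they share at least 1 bp. Stretches were filled greedily, fullest first, at most 120 kb long. Intervals of fragment numbers are 95% exact Poisson. Shares under alternatives were set against the 95% exact binomial (Clopper-Pearson) interval of the reported share. The overlap code was tested on simulated data (Python 3.11.15, numpy 2.4.6, pandas 2.3.3, scipy 1.17.1, matplotlib 3.10.9). The window, the lists and the comparisons were chosen with earlier results of these data known. All 16 window peaks are named, with the nearest peaks outside and the 3 fullest other stretches. The peaks on chromosomes 7 and X and the stretch on chromosome 17 were chosen after their values were seen, and so were the comparisons of width, of peak ends and of IgG level, with their splits by Fra-1. Alternatives were a minimum of 8-fold, −log10 q no lower than the median, a window wider by 50 kb on each side, other overlap rules and the other control. The planned comparison with ESR2 exons and the counts at other steroid receptor and cofactor genes need an hg19 annotation and were not run.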

Additional observations from a re-analysis of the deposited data

How the results depend on the processing

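Of 28 alternatives, 22 left the count within 1.5 times of the reported value, or the share or median inside its interval or the range of the peaks, and 6 did not. With only peaks of at least 8-fold, the DDX5 peaks in the window fell from 8 to 4 over input and from 7 to 3 over IgG, and the Fra-1 peaks over input from 1 to 0. The share of DDX5 peaks called again over IgG then became 100%, that is, all of the 4 that remain. With only peaks at or above the median −log10 q, the Fra-1 count over input was 0. These moves follow from fewer peaks. The median width, 402 bp over input, was 324 bp in the DDX5 list over IgG, and the cause was not tested. Widening the window by 50 kb on each side added no peak to any list, and every overlap rule tried gave 7 of 8 peaks called again over IgG and 0 of 8 with Fra-1. No paired analysis was possible because there is 1 library per antibody. Depths are unknown, and control levels of a few fragments limit every fold given here. The alternatives on exons were not run, because no hg19 annotation was used.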
